A study of Mus musculus with 2 samples.

Results

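The 10 genes described here encode sensors of foreign or misplaced nucleic acid and microbial products, with the proteins that carry their signal. They were Cgas, Sting1, Tbk1 and Irf3 of the cytosolic DNA pathway, the Toll-like receptors (TLRs) Tlr2, Tlr3, Tlr4 and Tlr9, Myd88, the adaptor of most TLRs, and the inflammasome sensor Nlrp3. They were chosen by symbol from 27179 genes listed, and all 10 were found. The RNA came from interscapular brown fat (iBAT), the thermogenic fat depot between the shoulder blades, of untreated mice of the strain C57BL/6N at an age of 20 days. The series describes the animals as male, which the sex-linked counts given below go against. There were 2 libraries, 1 for the wild-type and 1 for Ucp1-knockout mice (Ucp1-KO), whose disrupted gene encodes uncoupling protein 1, the mitochondrial protein through which brown fat makes heat. Each was prepared from the tissue of 3 pooled animals as a directional library of poly-adenylated RNA. The knockout allele and whether it acts in tissues other than fat were not described in the labels. With 1 pool per genotype there was no replicate, so no p-value is given. A 95% counting interval covers counting error only, and what is compared throughout are these pools. Where a pair of values is given, wild-type comes first and Ucp1-KO second.

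Innate sensors are germline-encoded receptors that recognise molecular patterns. The enzyme cGAS binds DNA in the cytosol and makes a cyclic dinucleotide that activates STING, which recruits the kinase TBK1 to phosphorylate the transcription factor IRF3 and induce type I interferon. Toll-like receptors recognise lipopeptides, lipopolysaccharide, double-stranded RNA or unmethylated CpG DNA at the cell surface or in endosomes, and most of them signal through MYD88 to NF-kappaB. NLRP3 assembles an inflammasome that matures interleukin-1beta and interleukin-18. In adipose tissue these sensors are known mainly from resident macrophages, endothelial cells and the adipocytes themselves.

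Among the members with counts in both libraries, Tlr2 and Tlr3 had the largest differences, in opposite directions, and Myd88 serves Tlr2 but not Tlr3. Their promoter windows are printed for this reason, from RefSeq (build GRCm38.p6), each from 250 bases before to 50 bases after a RefSeq start. All 3 were found without a mismatch in GRCm39, on the minus strand. The Tlr2 window lies at chr3:83748866-83749165, that of Tlr3 at chr8:45863368-45863667 and that of Myd88 at chr9:119169035-119169334. They read 5′ to 3′ along the gene, with capitals marking matches to NF-kappaB-like letters in Tlr2 and Tlr3 and to interferon-response-like and STAT-like letters in Myd88.
Tlr2: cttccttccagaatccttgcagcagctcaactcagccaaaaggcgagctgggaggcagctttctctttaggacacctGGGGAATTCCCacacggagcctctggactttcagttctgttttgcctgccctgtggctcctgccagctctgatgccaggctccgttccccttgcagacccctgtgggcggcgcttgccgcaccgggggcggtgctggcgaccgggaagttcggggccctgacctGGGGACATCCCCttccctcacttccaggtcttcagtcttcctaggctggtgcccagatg
Tlr3: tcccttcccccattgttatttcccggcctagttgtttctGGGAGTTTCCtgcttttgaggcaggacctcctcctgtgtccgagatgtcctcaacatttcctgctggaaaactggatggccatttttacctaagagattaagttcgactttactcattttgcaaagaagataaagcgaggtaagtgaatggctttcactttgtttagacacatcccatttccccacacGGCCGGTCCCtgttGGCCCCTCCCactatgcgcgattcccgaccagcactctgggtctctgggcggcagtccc
Myd88: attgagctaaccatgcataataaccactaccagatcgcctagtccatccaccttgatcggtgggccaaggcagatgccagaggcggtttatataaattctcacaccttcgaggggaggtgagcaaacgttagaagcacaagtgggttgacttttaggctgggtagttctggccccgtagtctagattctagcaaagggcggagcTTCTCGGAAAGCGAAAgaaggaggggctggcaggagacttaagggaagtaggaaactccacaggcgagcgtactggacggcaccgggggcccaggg
Both strands were searched and matches may overlap. NF-kappaB-like letters (GGGNNNNNCC) had 7 matches in the Tlr2 window, in 2 overlapping groups that start 173 and 9 bases before the RefSeq start. The Tlr3 window had 3 such matches and the Myd88 window 0. These letters are common, since 51.0% of 32544 promoter windows hold them. The Myd88 window held 1 interferon-response-like match (GAAANNGAAA), 40 bases before the start, which 3.45% of these 32544 windows hold. It overlapped a STAT-like match (TTCNNNGAA) that starts 46 bases before the start, of a kind found in 8.33% of windows. Of the other members with a window, Cgas had 2 NF-kappaB-like matches, Tbk1 2, Irf3 1 and Nlrp3 2 and 1 in its 2 windows. Tlr9 held an AP-1-like match (TGANTCA) 58 bases before its start, as 7.79% of windows do. Windows were examined for 8 of the 10 members. Sting1 and Tlr4 had no window among those examined, so nothing is said of their promoters. A match is a run of letters and says nothing of binding in these samples.

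The totals were 52950913 and 53216727 counts. Mitochondrially encoded genes took 22.4% and 36.7% of these, and mitochondrial ribosomal RNA alone 1.01% and 6.01%, a difference whose part in the results was not tested. Ucp1 itself was at 366473 and 37853 counts (log2 ratio -2.98, 95% counting interval -3.00 to -2.95), so the library labelled Ucp1-KO held less of its transcript without reaching 0. Y-linked transcripts were listed at 0 in the wild-type library, whereas Ucp1-KO had 3446 counts of Ddx3y, 798 of Uty, 570 of Kdm5d and 491 of Eif2s3y. The X-linked RNA Xist had 32380 and 16478 counts. The Y-linked values of 0 in wild-type, and Xist in both libraries, go against the description of the animals as male. The pools therefore differed in sex-linked transcripts as well as in genotype, and these cannot be told apart here. All 12 skeletal muscle markers were lower by 2-fold or more, with a median log2 ratio of -2.80 and Pvalb (-3.92) and Casq1 (-3.65) the lowest. All 11 brown adipocyte markers were present in both libraries, 9 higher (Elovl3 the most, at 2.52) and 2 lower beyond counting error, the lowest being Ucp1. Of all genes at that minimum, 31.5% were higher and 30.5% lower beyond counting error.

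Across the 10 sensor genes there was no common direction. The log2 ratio is the difference between the libraries, log2 of Ucp1-KO over wild-type, on counts normalised by median-of-ratios size factors with a pseudocount of 0.5. Genes were examined where the normalised count averaged 10 or more over both libraries. Of 9 such members, Tlr2, Sting1 and Tbk1 were higher in the Ucp1-KO library with a counting interval wholly above 0, which held for 31.5% of all 15212 genes examined. Tlr3 and Myd88 were lower with an interval wholly below 0, as were 30.5% of all genes. For Cgas, Irf3, Tlr4 and Nlrp3 the interval held 0. Only Tlr2 was at least 2-fold higher, against 7.42% of all genes, and 0 members were at least 2-fold lower, against 9.55%. The median log2 ratio of these 9 members was 0.04, beside -0.0016 over all genes, and it was -0.26 with total counts. Tlr9 had a mean of 9.98, just under the minimum of 10, while Nlrp3 was just above it, and Tlr9 is described by its counts. In bulk tissue such as this, fewer cells of a type and less RNA per cell cannot be told apart.

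**Figure D1:**
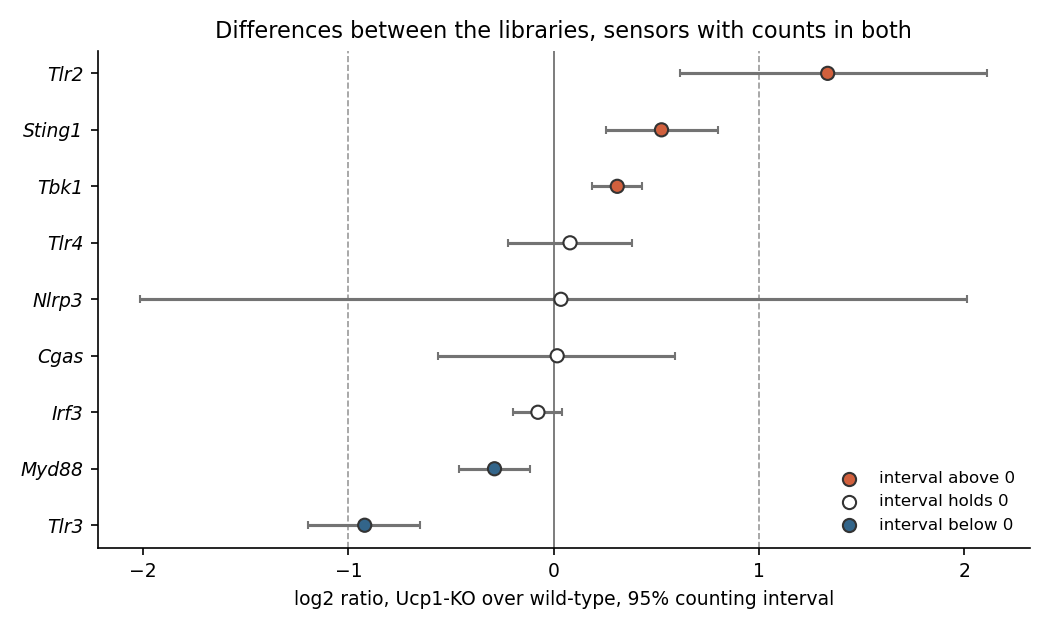
Log2 ratio of Ucp1-KO over wild-type on normalised counts (x axis) for the 9 sensor genes with counts in both libraries (y axis). Points are single ratios from 1 library per genotype and bars are 95% counting intervals. Dashed lines mark a 2-fold difference, which Tlr2 (1.33) exceeded and Tlr3 (-0.92) did not reach.

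Scaling mattered for the smaller of these differences. Total-count scaling shifted the median of all genes by -0.31 against the median-of-ratios factors, and by -0.01 once the mitochondrially encoded genes were left out of the totals. Genes at least 2-fold higher made up 43.7% of those past 2-fold with median-of-ratios factors and 24.0% with total counts. With total counts Tlr2 was the only member examined with an interval above 0, and Tlr3, Myd88 and Irf3 were those with an interval below 0. The shares of all genes with such intervals under total counts are not given.

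**Figure D2:**
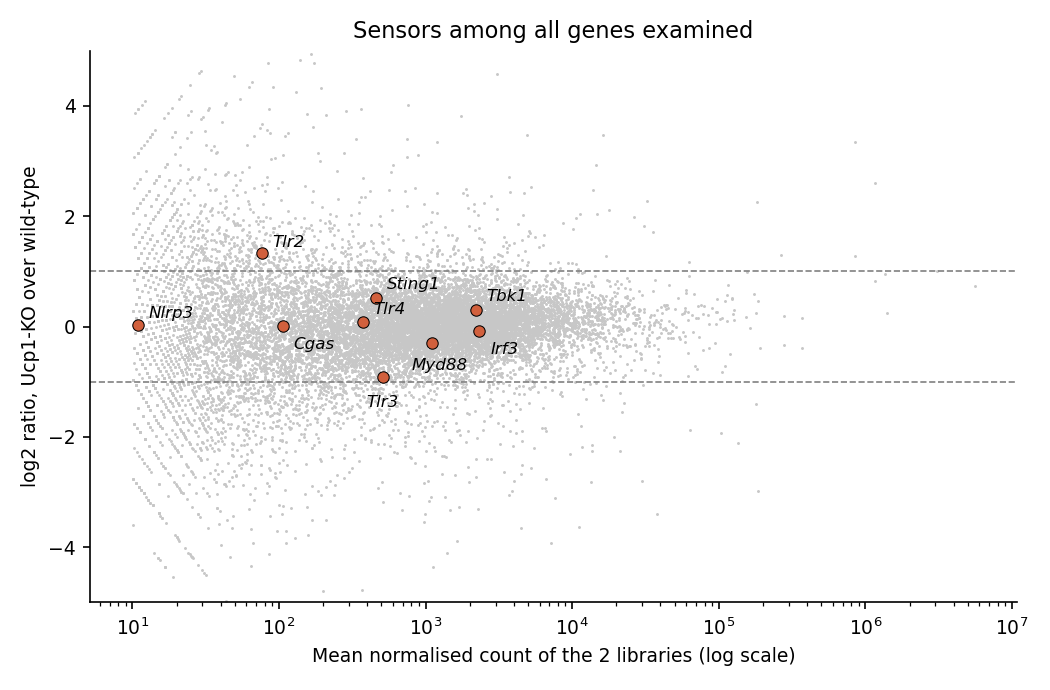
Log2 ratio of Ucp1-KO over wild-type (y axis) against the mean normalised count of the libraries (x axis, log scale) for 15212 genes in grey and the 9 sensor genes among them in orange. Dashed lines mark 2-fold differences, and 104 genes lie outside the plotted range of -5 to 5. The sensors lie within the cloud of all genes, with Tlr2 above the upper line and Tlr3 near the lower one.

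The cytosolic DNA pathway was led in level by its kinase and its transcription factor, and with median-of-ratios scaling its adaptor Sting1 had the log2 ratio furthest from 0, whereas with total counts it was Irf3. Sting1 (Entrez gene 72512; chromosome 18, 35866732 to 35873607 of GRCm39, minus strand), the membrane adaptor that receives the cGAS product, yielded 419 counts (95% Poisson interval 364 to 480) and 490 (431 to 555). The normalised count was 378 in wild-type and 544 in Ucp1-KO, 144% of the wild-type level, and the log2 ratio was 0.52 (0.25 to 0.80). The Ucp1-KO library was thus higher beyond counting error, but with total counts the log2 ratio was 0.22 (-0.05 to 0.49). Tbk1 (Entrez 56480; chromosome 10, 121382360 to 121422848, minus strand), the kinase downstream of STING, had 2191 and 2206 counts. Normalised counts of 1975 and 2447 gave a log2 ratio of 0.31 (0.19 to 0.43), and total counts 0.0026 (-0.12 to 0.12). The difference in both genes therefore rested on the scaling between the libraries, whereas the count of Sting1 relative to Tbk1, which no scaling changes, was 0.191 (0.164 to 0.222) in wild-type and 0.222 (0.193 to 0.255) in Ucp1-KO, with overlapping intervals.

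Cgas and Irf3, the first and the last step of the pathway, were near their wild-type levels with median-of-ratios scaling. Cgas (Entrez 214763; chromosome 9, 78337802 to 78350535, minus strand), the DNA sensor, yielded 118 (89.8 to 152) and 97 counts (71.6 to 128). These normalised to 106 and 108, with a log2 ratio of 0.02, and at this depth a difference inside the interval of -0.56 to 0.59 was not detectable. Exons of another gene on the opposite strand, Gm68924, cover 34.4% of the Cgas exons, and reads of such a pair cannot be told apart if the counting ignored strand. Irf3 (Entrez 54131; chromosome 7, 44647033 to 44652272, plus strand), the interferon-inducing transcription factor, yielded 2616 and 2015 counts. The log2 ratio was -0.08 (-0.20 to 0.04) on normalised counts of 2358 and 2236. With total counts it was -0.38 (-0.50 to -0.26), whereas TMM factors and totals without the mitochondrially encoded genes left 0 inside its interval. The exons of Irf3, Tlr4 and Tbk1 overlap genes on the opposite strand over 0.459% to 3.53% of their length.

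Per kilobase of exon, Irf3 had the highest level of the 10 genes in both libraries, with 677 normalised counts per kilobase in wild-type and 642 in Ucp1-KO. Tbk1 followed with 348 and 432, Myd88 with 315 and 258, and Sting1 with 118 and 170. Cgas stood far below its partners at 20.5 and 20.7. The counting intervals of Tbk1 and Myd88 overlapped in wild-type but not in Ucp1-KO, and those of Tlr3 and Sting1 overlapped in wild-type, where Tlr3 had 126 normalised counts per kilobase. In the Ucp1-KO library Sting1 exceeded Tlr3, which overlapped Tlr4 there. Tlr2, Nlrp3 and Tlr9 were the lowest in wild-type with overlapping neighbours, whereas in Ucp1-KO the Tlr2 interval reached that of Cgas.

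**Figure D3:**
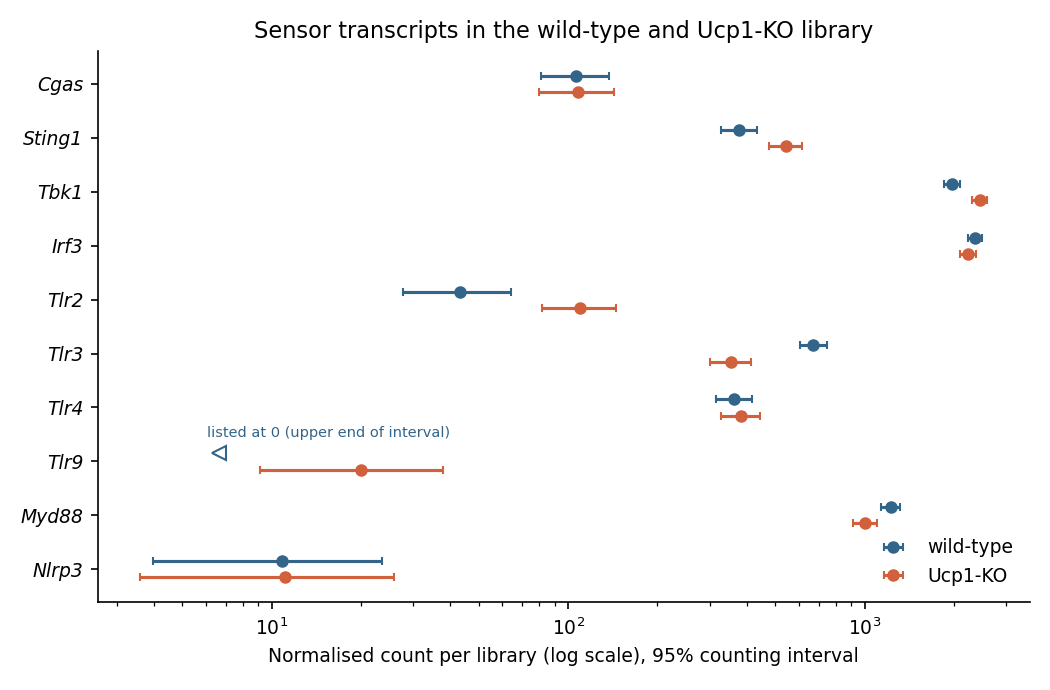
Normalised count of each of the 10 sensor genes (y axis) in the wild-type and the Ucp1-KO library (x axis, log scale). Points are single libraries and bars are 95% counting intervals. The bars of Tlr2 (43.3 and 109.8), Tlr3 (672 and 355), Sting1 (378 and 544), Tbk1 (1975 and 2447) and Myd88 (1225 and 1003) do not overlap between the libraries. By a different rule, the interval of the ratio, 31.5% of all genes examined lay wholly above 0 and 30.5% wholly below 0. Tlr9 was listed at 0 in wild-type, where the open triangle marks the upper end of its interval (6.65). The Ucp1-KO bar of Tlr9 starts at 9.13 and lies above that end.

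Tlr2 and Tlr3 moved apart. Tlr2 (Entrez 24088; chromosome 3, 83743576 to 83749074, minus strand), a surface receptor for bacterial lipopeptides, was covered by 48 (30.8 to 71.4) and 99 counts (73.4 to 131). The normalised counts of 43.3 and 109.8 gave a 2.52-fold higher level and a log2 ratio of 1.33 (0.61 to 2.11). Among 2184 genes with a mean normalised count within 2-fold of that of Tlr2 (76.5), 13.7% were at least 2-fold higher, so a difference of this size was not rare at that level of expression. Its promoter window is the one with 7 NF-kappaB-like matches above.

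Tlr3 (Entrez 142980; chromosome 8, 45848702 to 45864117, minus strand), the endosomal receptor for double-stranded RNA, was covered by 746 (672 to 826) and 320 counts (272 to 374). Normalised, it held 672 and 355, and the level in Ucp1-KO was 52.8% of that in wild-type. The log2 ratio was -0.92 (-1.20 to -0.65) and with total counts -1.23 (-1.50 to -0.96). Of the 10 members it was the only one past 2-fold lower under total counts, as were 15.2% of all genes under that scaling. Tlr3 was lower beyond counting error under either scaling. Exons of Gm45542 on the opposite strand cover 8.19% of its exons.

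Tlr4 and Tlr9 completed the set. Tlr4 (Entrez 21898; chromosome 4, 66745783 to 66849936, plus strand), the receptor for lipopolysaccharide, was covered by 403 (349 to 463) and 346 counts (296 to 402). Its log2 ratio was 0.08 (-0.22 to 0.38), and with total counts -0.23 (-0.53 to 0.07). Neither interval excluded 0. Tlr9 (Entrez 81897; chromosome 9, 106099797 to 106104082, plus strand), the endosomal receptor for CpG DNA, was listed at 0 in wild-type and had 18 counts in Ucp1-KO (8.23 to 34.2). A count of 0 allows up to 3 read pairs, or 6 counts, which is 0.113 CPM (the count scaled to equal library totals) in the wild-type library. Against that floor the normalised Tlr9 level in Ucp1-KO was 3.69-fold higher, a value that leaves out the counting error of the 18 counts. The lower end of the Tlr9 counting interval was 2.43-fold.

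Ratios of counts between receptors within a library do not depend on the scaling between libraries. They are not corrected for length and serve only to compare the libraries. Tlr3 had 1.85 times the counts of Tlr4 in wild-type (1.56 to 2.21) and 0.925 times in Ucp1-KO (0.741 to 1.15). Tlr2 had 0.0643 times the counts of Tlr3 in wild-type (0.0407 to 0.0972) and 0.309 times in Ucp1-KO (0.220 to 0.428). Tlr2 relative to Tlr4 was 0.119 (0.0746 to 0.182) and 0.286 (0.204 to 0.394). The intervals of all 3 pairs were apart between the libraries. Tlr3 supplied 49.0% of the counts of all 12 TLR genes in wild-type (exact binomial interval 45.4% to 52.6%) and 26.6% in Ucp1-KO (23.1% to 30.3%). The share of Tlr2 was 3.15% (2.03% to 4.65%) and 8.24% (6.17% to 10.7%), while that of Tlr4 was 26.5% and 28.8% with overlapping intervals. Corrected for exon length, Tlr3 made up 51.3% of the summed TLR level in wild-type and 27.3% in Ucp1-KO.

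**Figure D4:**
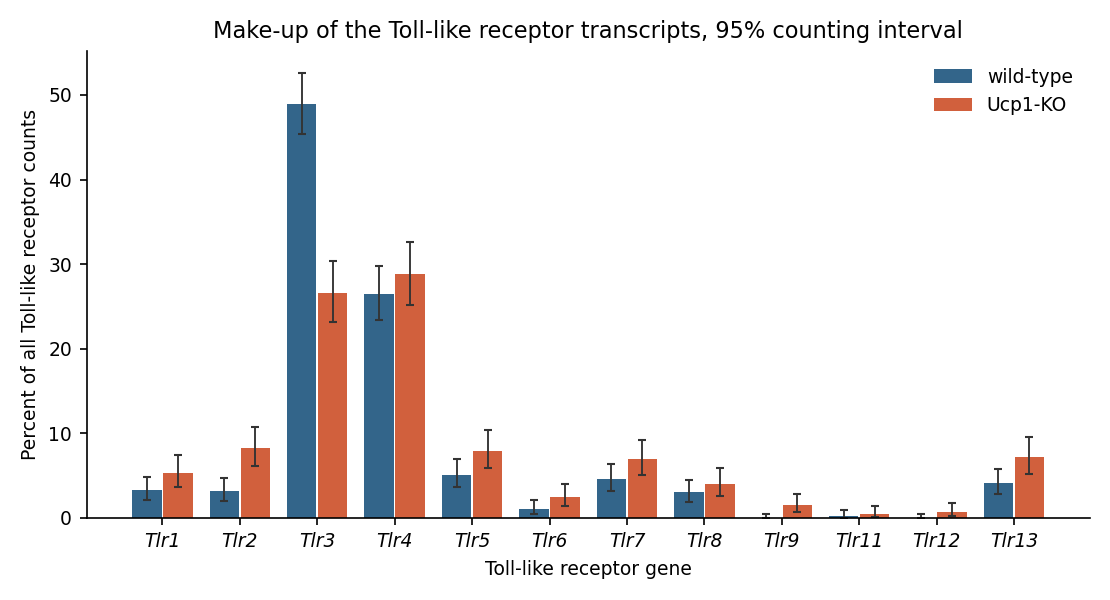
Share of each gene in the counts of all 12 TLR genes (y axis, percent) in the wild-type and the Ucp1-KO library (x axis, gene). Bars start at 0 and error bars are exact 95% binomial intervals on read pairs. Tlr3 held 49.0% in wild-type and 26.6% in Ucp1-KO, the largest change in share.

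With median-of-ratios factors the summed TLR level hardly differed, at 245 normalised counts per kilobase in wild-type and 243 in Ucp1-KO. As deposited, the 12 TLR genes had 1523 and 1202 counts at near-equal library totals, so this likeness rested on the scaling. The TLR genes other than Tlr3 together gave 777 and 882 counts, with a log2 ratio of 0.48 (0.28 to 0.68) with median-of-ratios factors and 0.18 (-0.02 to 0.38) with total counts. Of the 8 TLR genes outside the set, 6 reached the minimum mean of 10. All 6 ratios were positive with median-of-ratios factors, although 5 of their intervals held 0. The median of the 6 was 0.62, and 0.31 with total counts. Over all genes the median was -0.0016, and -0.31 with total counts. Positive and negative ratios were thus about equally common among all genes with median-of-ratios factors. Only Tlr13, a receptor for bacterial ribosomal RNA, had an interval above 0 with median-of-ratios factors, as 31.5% of all genes did. It had 62 and 86 counts (log2 ratio 0.77, 0.07 to 1.49). Tlr6, a partner of TLR2, had 16 and 29 counts and a log2 ratio of 1.13 (-0.18 to 2.61). Tlr1, the other partner of TLR2, had 0.65, Tlr5 0.58, Tlr7 0.54 and Tlr8 0.36 as log2 ratio. Tlr11 had 4 and 6 counts, and Tlr12 was listed at 0 in wild-type with 8 counts in Ucp1-KO.

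Markers of the cells that carry these receptors also differed. All 16 macrophage markers had counts in both libraries, and their summed normalised count was 8306 in wild-type and 10224 in Ucp1-KO (log2 ratio 0.30, 0.24 to 0.36), whereas on total counts it was 174 and 173 CPM. Their median log2 ratio was 0.12. Of them, 7 were higher beyond counting error, led by Itgam at 2.04 and Trem2 at 1.92, and 2 were lower, Cx3cr1 at -1.90 and Cd163 at -0.47. Of all genes, 31.5% were higher and 30.5% lower by that rule. The other 7 macrophage markers, among them Csf1r at -0.01 and Adgre1 at -0.21 (-0.59 to 0.17), had intervals that held 0. Tlr2 had 0.168 times the counts of Adgre1 in wild-type (0.104 to 0.261) and 0.495 times in Ucp1-KO (0.345 to 0.703), but 0.50 and 0.307 times those of Itgam with overlapping intervals. The part of macrophages in the Tlr2 difference was not tested.

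Several marker lists were lower along with Tlr3, among them the endothelial one. Of 9 endothelial markers, 8 were lower and Cldn5 (0.50) was higher beyond counting error, beside 30.5% and 31.5% of all genes. The median log2 ratio of the 9 was -0.87, and none was at 0. Their summed normalised count was 103835 in wild-type and 63747 in Ucp1-KO (log2 ratio -0.70, -0.72 to -0.68), with Emcn at -1.39 and Vwf at -1.05. Tlr3 relative to Kdr, an endothelial receptor for vascular growth factor, was 0.0226 (0.0203 to 0.0250) in wild-type and 0.0218 (0.0185 to 0.0255) in Ucp1-KO. Relative to Pecam1 it was 0.0387 (0.0348 to 0.0430) and 0.0284 (0.0241 to 0.0332), so Tlr3 was lower against Pecam1 and not distinguishable against Kdr. Skeletal muscle markers, described above, were lower by more than Tlr3. The part of endothelial cells, muscle or other cells in the Tlr3 difference was not tested. Adgre1, Csf1r, Cx3cr1, Cd163, Kdr, Pecam1 and Cldn5 were chosen after their values were seen.

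Of 5 other cell types, the preadipocyte and fibroblast markers were mostly lower and the rest gave mixed values. None of these lists had more than 2 markers at 0 in a library. Of 5 dendritic cell markers examined, 1 was higher and 2 lower beyond counting error (Flt3 -1.92, Itgax 1.47), beside 31.5% and 30.5% of all genes. The log2 ratio of all 8 summed was -0.27 (-0.41 to -0.12). The 7 neutrophil markers summed to 148 and 227 counts, a log2 ratio of 0.91 (0.48 to 1.36). Among them S100a9 had a log2 ratio of 1.66 and Csf3r 1.13, while Ly6g was listed at 0 in both libraries and Mpo in wild-type. The B cell markers summed to 172 and 146 counts (log2 ratio 0.06, -0.41 to 0.53). Of these, Cd79a was at 0.75 and Cd79b at -0.67, and Pax5 had 0 counts in Ucp1-KO. The T cell markers summed to 149 and 82 counts (log2 ratio -0.56, -1.15 to 0.007). Here Cd4 was at -1.85 and Cd3e at 1.56, and Cd3d had 0 counts in Ucp1-KO. Of the 8 preadipocyte and fibroblast markers, 7 were lower beyond counting error, beside 30.5% of all genes. The median log2 ratio of the 8 was -0.16, with Ly6a at -0.68 and Lum at -0.49. The part of these cells in the differences among sensors was not tested.

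Myd88 (Entrez 17874; chromosome 9, 119165000 to 119170486, minus strand), the adaptor shared by most TLRs and by the interleukin-1 receptor, was covered by 1359 (1259 to 1465) and 904 counts (823 to 991). Its normalised counts were 1225 and 1003, and the Ucp1-KO level was 81.9% of that in wild-type. The log2 ratio was -0.29 (-0.46 to -0.11), and -0.60 (-0.77 to -0.42) with total counts. Myd88 thus differed in the direction opposite to Tlr2, a receptor that signals through it. Exons of Acaa1a on the opposite strand overlap 16.2% of the Myd88 exons, and Acaa1a had 4649 and 3502 counts (log2 ratio -0.11, -0.20 to -0.02).

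The partners of the TLRs included genes in both directions. Of 19 co-receptors, chaperones and adaptors examined, 6 were higher and 3 lower beyond counting error, beside 31.5% and 30.5% of all genes, so the share that was higher was near that of all genes. They had a median log2 ratio of 0.17 that turned to -0.14 with total counts. Irak3, a kinase relative that restrains TLR signals, had 671 and 1444 counts (log2 ratio 1.40, 1.22 to 1.60) and was the only gene of this list past 2-fold. Cd14, the co-receptor that passes lipopolysaccharide to TLR4, had 103 and 151 counts and a log2 ratio of 0.85 (0.32 to 1.39). Irak2, a kinase of the MYD88 complex, had 2108 and 2839 counts and a log2 ratio of 0.73 (0.61 to 0.85). On the other side were Irak4, the first kinase of that complex, with 873 and 464 counts and a log2 ratio of -0.61 (-0.85 to -0.38), and Ly96, the TLR4 partner MD-2, with 235 and 126 counts and -0.60 (-1.06 to -0.15). These last 2 genes were chosen after their values were seen.

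Nlrp3 (Entrez 216799; chromosome 11, 59432394 to 59457782, plus strand) was at the limit of detection, with 12 (4.40 to 26.1) and 10 counts (3.25 to 23.3). Its log2 ratio of 0.04 had an interval of -2.01 to 2.01, and a difference inside it was not detectable at this depth. Of 16 other inflammasome genes, 13 were examined, of which 3 were higher and 3 lower beyond counting error (31.5% and 30.5% of all genes), with a median of -0.15. Casp4, the caspase that senses cytosolic lipopolysaccharide, had 21 and 143 counts (log2 ratio 3.03, 2.12 to 4.16). Il18, the cytokine that the inflammasome matures, had 60 and 7 counts (log2 ratio -2.72, -4.93 to -1.21). Nlrc4, a sensor partner for bacterial proteins, had 33 and 12 counts and -1.13 (-2.80 to 0.26). Nlrp1a and Mefv were listed at 0 in wild-type and had 16 and 17 counts in Ucp1-KO.

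The cytosolic RNA sensing genes are few, and their counts are a description. Of 8 genes, 2 were higher and 4 lower beyond counting error (31.5% and 30.5% of all genes), none past 2-fold, with a median log2 ratio of -0.12. Dhx58, a regulator of the RIG-I family, had 398 and 195 counts and a log2 ratio of -0.73 (-1.09 to -0.37). Trim25 and Rnf135, ubiquitin ligases that activate RIG-I, had -0.37 and -0.36, and Rigi itself -0.15 (-0.29 to -0.01). Mavs, the mitochondrial adaptor of the pathway, was at 0.16 (0.07 to 0.24) and Tkfc, an inhibitor of the sensor MDA5, at 0.84 (0.53 to 1.15). Ifih1, which encodes MDA5, was at -0.09 and the RNA-activated kinase gene Eif2ak2 at -0.08.

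Of 14 genes for DNA sensing and for the clearance of DNA or RNA, 5 were higher and 1 lower beyond counting error (31.5% and 30.5% of all genes), with a median of 0.21 that turned to -0.094 with total counts. Dnase1l3, a secreted nuclease, had 6 and 26 counts and a log2 ratio of 2.31 (0.55 to 4.87). Aim2, a cytosolic DNA sensor that forms an inflammasome, had 48 and 69 counts and 0.82 (0.03 to 1.64). Zbp1, a sensor of Z-form nucleic acid, was at 0.63 (-0.60 to 1.93). The low counts of Dnase1l3 left its size open over a wide range.

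In the NF-kappaB and IRF arm downstream of the sensors, 11 of 22 genes were higher and 3 lower beyond counting error, beside 31.5% and 30.5% of all genes. The median log2 ratio was 0.18 (-0.13 with total counts), and 5 genes were at least 2-fold higher and 0 lower, beside 7.42% and 9.55% of all genes. Tnfaip3, the ubiquitin-editing inhibitor A20 of this pathway, had 247 and 1101 counts (log2 ratio 2.45, 2.17 to 2.75). Nfkbie, an inhibitor of NF-kappaB, had 46 and 119 counts and 1.66 (0.95 to 2.43). Irf5, a transcription factor activated by MYD88-dependent TLRs, had 88 and 191 counts and 1.41 (0.89 to 1.97). The log2 ratios of these 3 genes were above those of the 9 sensors examined, although the intervals of Nfkbie and Irf5 overlapped that of Tlr2.

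**Figure D5:**
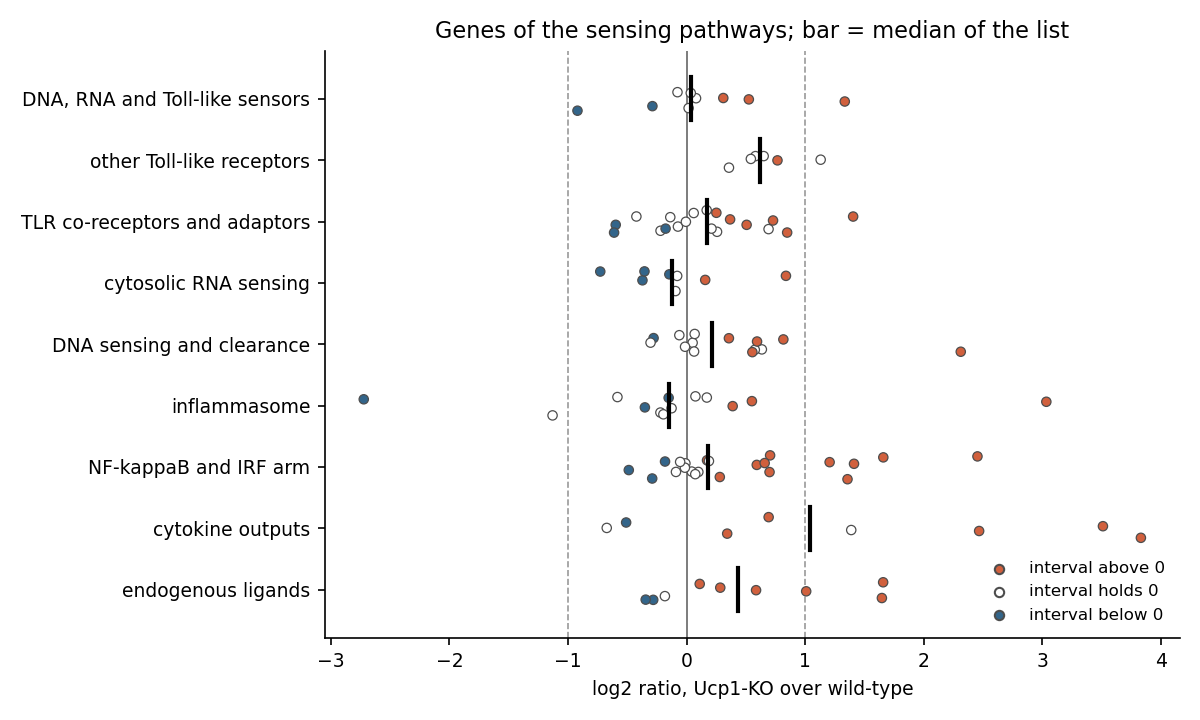
Log2 ratio of Ucp1-KO over wild-type (x axis) for the genes of the sensor set and of 8 lists of pathway genes (y axis) that averaged 10 normalised counts or more and had counts in both libraries. Each point is a gene, coloured by whether its 95% counting interval lies above 0, holds 0 or lies below 0, and black bars are list medians. The 9 sensors drawn have a median of 0.04 and the cytokine outputs one of 1.04, and Saa3, at 0 in wild-type, is not drawn but counts in its list's median.

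The cytokine and effector genes that the sensors control gave few measurable transcripts. Of 17 genes, 8 were examined, of which 5 were higher and 1 lower beyond counting error (31.5% and 30.5% of all genes). The median log2 ratio was 1.04, and it was 0.39 with total counts and 0.69 without a minimum level. Il1rn, the interleukin-1 receptor antagonist, had 30 and 353 counts (log2 ratio 3.83, 3.10 to 4.72). The chemokine genes Cxcl1 and Ccl3 had log2 ratios of 3.51 (2.61 to 4.65), from 20 to 190 counts, and 2.47 (0.74 to 5.01), from 6 to 29 counts. The interferon gene Ifnb1 and Il6 were listed at 0 in both libraries, where the floor set for a count of 0 is 0.113 CPM. Tnf, with 18 and 2 counts, was below the minimum level, and its log2 ratio was -2.62 (-8.32 to -0.02). Ifnb1, Il6 and Tnf were chosen because they are the textbook products of these pathways, after their values were seen.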

How the data were processed

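RNA of iBAT from wild-type and Ucp1-KO mice was measured in 2 libraries, each a pool of 3 animals. The deposited values are whole-number counts per gene that the authors made with featureCounts, as the file headers show, after the steps their processing notes name (Trim Galore, HISAT2 and the build mm39, versions not given). The annotation and the settings for strand and multiply mapped reads were not given in the sources used here, so genes that overlap another are uncertain. Of the 27179 genes, 1319 had no symbol (0.156% and 0.121% of counts) and were kept.

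For scaling, size factors by the median of ratios were taken from DESeq2 1.42.0 in R 4.3.3 (1.11 for wild-type, 0.901 for Ucp1-KO). TMM factors (edgeR 4.0.16) and total counts were alternatives. Even values prevailed among low counts (70.7% and 73.4% of genes with 1 to 10 counts, against 49.9% and 50.2% at 100 to 1000), so intervals were computed on read pairs, taken as counts divided by 2. Counts have exact Poisson intervals, ratios exact conditional binomial (Clopper-Pearson) intervals and shares exact binomial intervals, all at 95% (Python 3.11.15, scipy 1.17.1). No source describes molecular identifiers, so reads may be copies of one molecule and the intervals and floors cover counting error only. The scripts were tested on simulated data with known changes.

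The sensor genes and the lists of pathway genes and markers were chosen with earlier results of these data known. Named genes were the 10 members, Ucp1, for each pathway list the 3 genes whose log2 ratio was furthest from 0, 2 such genes for each marker list and every gene of pathway lists of up to 8, with other names said to be chosen afterwards, or given as checks of the libraries, as overlapping genes, because a library listed them at 0, or for their weight in a sum. Positions and exon lengths came from GENCODE mouse release 39 on GRCm39, joined by symbol, and promoter windows from RefSeq.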

Additional observations from a re-analysis of the deposited data

How the results depend on the processing

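No paired analysis was possible because there was only 1 library per genotype, so leaving out a library would leave no comparison. Of 116 log2 ratios and list medians recomputed under the alternatives, 8 changed sign, 7 of them with total counts and 1 on summed counts. The 116 include a setting that altered only the members' intervals and could not change a sign. Most of the 116 did not use total counts, so their number says little about that scaling. The size of the differences between animals is unknown. Total counts gave Sting1 a log2 ratio of 0.22, Tbk1 0.0026, Irf3 -0.38, Tlr3 -1.23, Tlr4 -0.23, Myd88 -0.60, Cgas -0.29 and Nlrp3 -0.26, a member median of -0.26 and list medians of -0.13 for the NF-kappaB and IRF arm, -0.14 for TLR co-receptors and adaptors, -0.43 for RNA sensing, -0.094 for DNA sensing and clearance, -0.46 for the inflammasome and 0.13 for endogenous ligands. That scaling counts the mitochondrially encoded genes, and without them in the totals the shift of all genes fell from -0.31 to -0.01. Summing the counts of a list, which weights its abundant genes, turned the inflammasome to 0.36, where Txnip held 42867 of 48658 wild-type counts, and gave the endogenous ligands 0.084. The median of the cytokine outputs, 1.04, was 0.39 with total counts, 0.69 without a minimum level or with a minimum of 50, and 0.55 on summed counts. The number of members at least 2-fold higher, 1, became 2 without a minimum level (Tlr9) or at a log2 ratio of 0.5 (Sting1), and 3 when the interval on one side of 0 was the rule, on read pairs or on the counts as deposited. The number at least 2-fold lower, 0, became 1 with total counts or at a log2 ratio of 0.5 (Tlr3), 2 by the interval on either kind of count, and 3 by the interval with total counts. The numbers of members by intervals on deposited counts or with total counts, and the scalings of the TLR sum without Tlr3 (0.18 with total counts), were chosen after seeing the data. TMM factors left every member's log2 ratio within its counting interval. Depth limits Nlrp3, Tlr9, Tlr2 and Cgas most.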

Other observations

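The 10 genes listed as endogenous ligands of TLRs and of the inflammasome included more higher than lower genes in the Ucp1-KO library with median-of-ratios scaling. Of them 7 were higher and 2 lower beyond counting error, beside 31.5% and 30.5% of all genes. The median log2 ratio was 0.43, or 0.13 with total counts, beside -0.0016 over all genes with median-of-ratios scaling. Saa3, an acute-phase protein that can act on TLR2 and TLR4, was listed at 0 in wild-type and had 52 counts in Ucp1-KO. Its normalised level was 10.7-fold higher than a floor of 6 counts, which leaves out the counting error of the 52 counts. The lower end of its counting interval was a log2 ratio of 3.01. S100a9, a subunit of calprotectin and a TLR4 ligand also used here as a neutrophil marker, had 32 and 83 counts and a log2 ratio of 1.66 (0.81 to 2.61). Hspa1b, an inducible heat shock protein, had 270 and 688 counts and 1.65 (1.36 to 1.95). The summed counts of the list had a log2 ratio of 0.084, and most of them were those of Hspd1, a mitochondrial chaperone with 39694 and 34817 counts (log2 ratio 0.11, 0.08 to 0.14). Hspd1 was named after its values were seen.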
